A study of Mus musculus with 15 samples.

Results

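Renal phosphate handling and the vitamin D endocrine axis were followed through 10 genes across 15 mouse kidney arrays: the phosphate transporters Slc34a1, Slc34a3, Slc20a1 and Slc20a2, the scaffold Pdzk1, the FGF23 co-receptor Kl (alpha-Klotho) and receptor Fgfr1, and the vitamin D genes Cyp27b1, Cyp24a1 and Vdr. They were chosen by name, as 10 of the 16055 genes tested, each through probes whose RefSeq accession carries its symbol. All 10 were well above background on all 15 arrays, so none depended on the filter on dim probes.

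Each array held the kidney RNA of a different male C57/BJ mouse. At 6 weeks of age the mice underwent either uninephrectomy, in which the left kidney was taken out, or a sham operation in which it was handled and left in place. They were then kept for 20 weeks on a high-fat diet or on low-fat chow. The groups were uninephrectomised mice on the high-fat diet (4 arrays), sham-operated mice on the high-fat diet (3), uninephrectomised mice on chow (4) and sham-operated mice on chow (4), called below mice with 1 kidney and sham mice. The labels state 6 mice per group and name no genetic alteration. In mice with 1 kidney the RNA came from the kidney that remained; the labels do not say which kidney of the sham mice was used.

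The kidney reclaims filtered phosphate in the proximal tubule, where sodium-dependent cotransporters sit in the brush border and are held there by PDZ-domain scaffolds. FGF23, a hormone made in bone, binds FGFR1 together with Klotho and lowers both the brush-border cotransporters and the synthesis of active vitamin D. CYP27B1 makes the active hormone calcitriol, CYP24A1 inactivates it, and the vitamin D receptor VDR carries its signal to genes.

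The proximal promoters of the type II cotransporters Slc34a3 and Slc34a1 are shown first, because these relatives share a membrane and a substrate and gave different results between diets. Each sequence is the 250 bases before the gene's start in RefSeq, build GRCm38.p6, written 5′ to 3′ on the gene's strand. Capitals mark the nuclear receptor half-site AGGTCA, or TGACCT on the other strand, and the HNF1 half-site GTTAAT, or ATTAAC on the other strand. No marked matches overlap. Slc34a3 lies on the minus strand at chr2:25234235-25234484, and Slc34a1 on the plus strand at chr13:55399398-55399647.
Slc34a3: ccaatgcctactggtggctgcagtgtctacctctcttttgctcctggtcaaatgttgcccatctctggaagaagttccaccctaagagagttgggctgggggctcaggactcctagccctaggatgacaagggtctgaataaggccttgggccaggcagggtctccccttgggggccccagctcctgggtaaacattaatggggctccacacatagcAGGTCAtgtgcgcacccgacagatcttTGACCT
Slc34a1: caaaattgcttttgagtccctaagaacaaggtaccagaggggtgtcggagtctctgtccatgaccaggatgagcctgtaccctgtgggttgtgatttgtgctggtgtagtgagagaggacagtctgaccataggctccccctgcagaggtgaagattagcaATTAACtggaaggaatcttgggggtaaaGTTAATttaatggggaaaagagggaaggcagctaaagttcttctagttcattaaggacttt
In the Slc34a3 window, 2 AGGTCA-type matches began 33 and 6 bases before the start, and no GTTAAT-type match was found. In the Slc34a1 window, 2 GTTAAT-type matches began 89 and 61 bases before the start, and no AGGTCA-type match was found. Of 32851 RefSeq promoter windows of the same length, 4607 held at least 1 AGGTCA-type match and 446 (1.36%) held 2 or more. For GTTAAT-type matches these numbers were 2113 (6.43%) and 145 (0.441%). AGGTCA-type matches also began 50 bases before a start of Pdzk1 and 26 and 75 bases before starts of Slc20a1, and neither gene passed between diets. The windows of Kl, Cyp27b1 and Vdr held neither type of match. Such matches are letters in a window, and the arrays measured no binding. Their part in the levels was not tested.

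Levels are given as log2 of the background-subtracted signal minus the array's own 75th percentile, so that 0 is that percentile and 1 unit is a doubling. A level compares arrays for 1 probe and is not set against the level of another probe. Tests are limma's moderated test over all 15 arrays, with Benjamini-Hochberg adjustment over 16055 genes and a threshold of 0.05. The number of arrays limits the precision. The share of spots well above background was 65.7% to 73.4% on the high-fat arrays and 60.5% to 65.6% on the low-fat arrays. An array's lowest signal well above background was -7.19 to -6.07 on the high-fat arrays and -5.94 to -5.22 on the low-fat arrays. Neither measure overlapped between diets. The high-fat arrays lay on slides 1 and 2, read on scan day 1, and the low-fat arrays on slide 3 (sham) and slide 4 (1 kidney), read on scan day 2. Diet and scan day cannot be told apart, nor can surgery and slide on the low-fat diet. All 14 proximal tubule markers used to check the kidney label were measured.

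Between diets, Slc34a3 was the only one of the 10 genes to pass the test, and it fell on the high-fat diet in both surgical states. Slc34a3 had 1 named probe, so no second probe could be compared. Its product, NaPi-IIc, is a brush-border sodium-phosphate cotransporter of the proximal tubule. With 1 kidney, its level was 2.54, 2.46, 3.15 and 3.40 on the high-fat arrays, against 3.90, 3.60, 4.14 and 4.12 on the low-fat arrays. After sham surgery, it was 3.28, 2.59 and 2.63 on the high-fat arrays, against 3.48, 3.80, 3.92 and 3.78 on the low-fat arrays. Every high-fat array was below every low-fat array, within each surgical state and over all 15 arrays.

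With 1 kidney Slc34a3 averaged 2.89 ± 0.46 on the high-fat diet and 3.94 ± 0.25 on the low-fat diet (SD, n = 4 each). This log2 difference of -1.06 (SE 0.22, 95% interval -1.54 to -0.58, adjusted p = 0.00784) is a 2.08-fold lower signal. After sham surgery it averaged 2.83 ± 0.39 on the high-fat diet (SD, n = 3) and 3.75 ± 0.19 on the low-fat diet (SD, n = 4). There the log2 difference was -0.91 (SE 0.24, 95% interval -1.43 to -0.40, adjusted p = 0.0247), a 1.89-fold lower signal. In whole kidney, fewer cells of a type and less RNA per cell cannot be told apart.

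One of the 10 genes thus passed in mice with 1 kidney, where 14.2% of all genes passed and 6.52% passed as lower on the high-fat diet. One of 10 also passed in sham mice, where 13.9% of all genes passed and 7.41% passed as lower. Genes lower in both comparisons made up 4.14% of those tested, and genes whose high-fat and low-fat arrays did not overlap at all made up 9.26%. A count of 1 in 10 is near these shares, so the genes as a group did not stand out from the array. The median log2 difference of the 10 genes was -0.097 in mice with 1 kidney and 0.043 in sham mice, beside -0.011 and -0.019 over all genes.

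Slide means of Slc34a3 were 2.76 on slide 1 and 2.94 on slide 2, both high-fat, against 3.75 on slide 3 and 3.94 on slide 4, both low-fat. With the slide as a random block the log2 differences were -1.06 and -0.94, but the adjusted p was 0.258 in mice with 1 kidney and 0.281 in sham mice, and neither passed. The call in mice with 1 kidney held on leaving out any array, at -1.23 to -0.91. The sham call was lost without high-fat sham replicate 2 (-0.79, adjusted p = 0.0921) or 3 (-0.81, adjusted p = 0.0641). That call was also lost without low-fat sham replicate 2 (-0.90, adjusted p = 0.0555), 3 (-0.86, adjusted p = 0.0662) or 4 (-0.90, adjusted p = 0.0515).

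**Figure D1:**
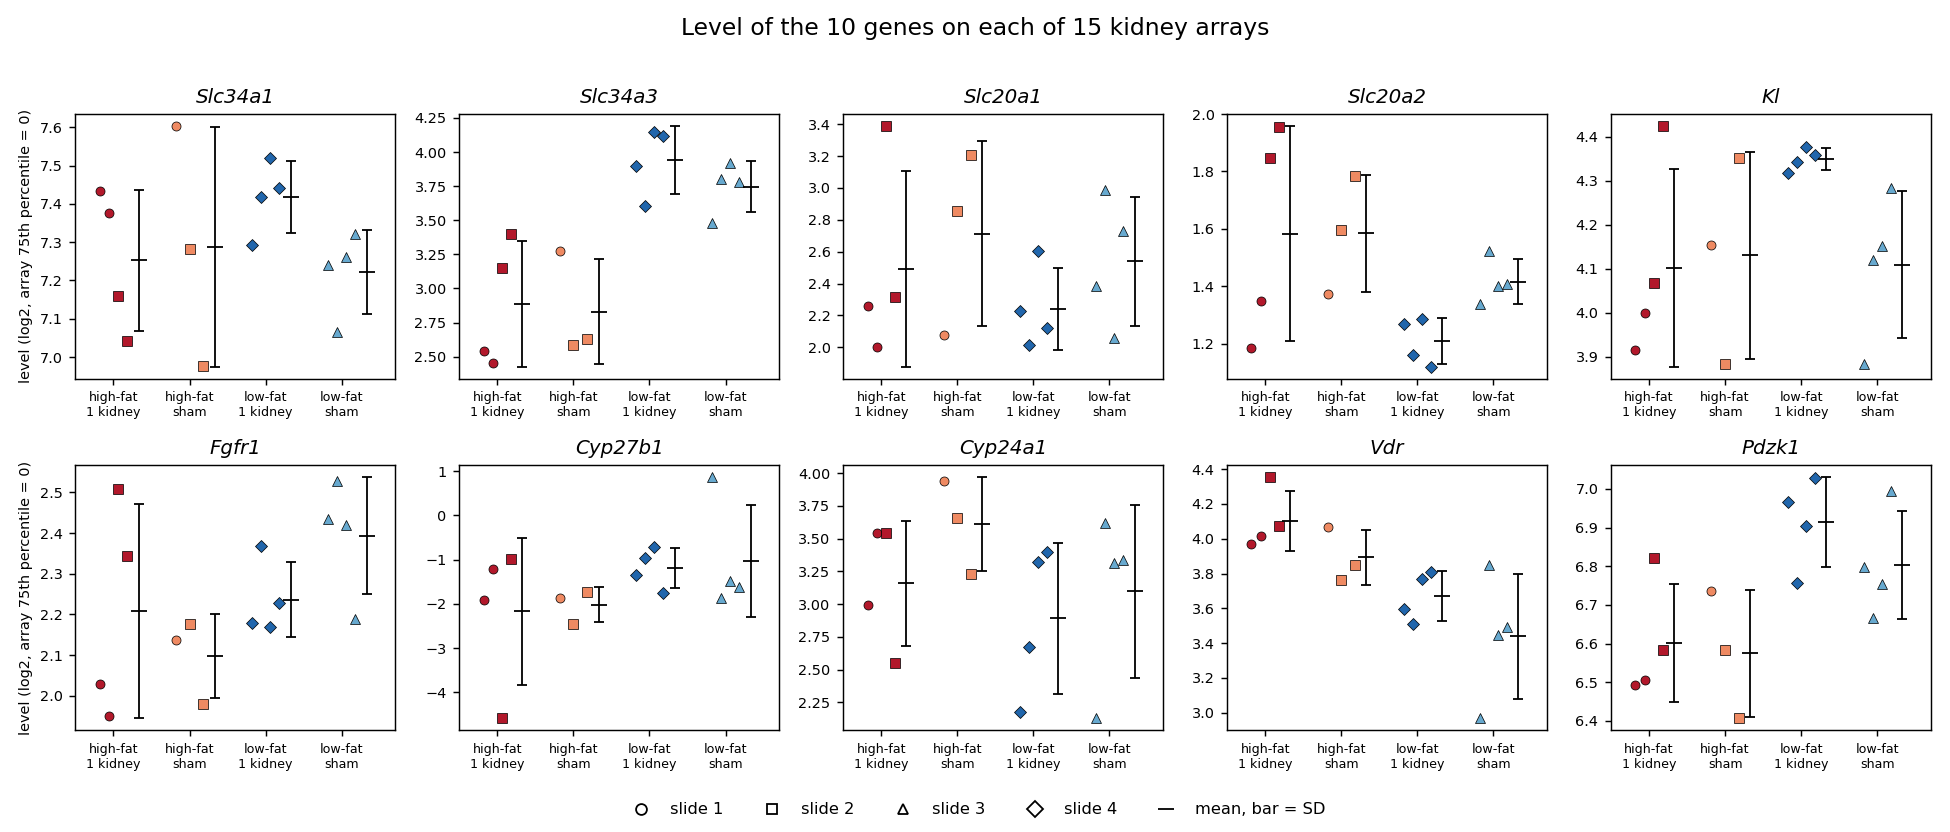
Level of each of the 10 genes on each array (vertical axis, log2 signal with the array's 75th percentile at 0, each panel on its own scale), by diet and surgery. Points are arrays with a shape for each slide, and bars are the group mean with its SD. Slc34a3 spans 2.46 to 3.40 on the high-fat arrays, against 3.48 to 4.14 on the low-fat arrays.

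Slc34a1 did not pass in any comparison. It encodes NaPi-IIa, the main brush-border phosphate cotransporter of the mouse. Slc34a1 was at 7.43, 7.38, 7.16 and 7.04 on the high-fat arrays with 1 kidney, against 7.29, 7.42, 7.52 and 7.44 on the low-fat ones. Sham mice had levels of 7.60, 7.28 and 6.98 on the high-fat arrays, against 7.24, 7.06, 7.26 and 7.32 on the low-fat arrays. The diets overlapped in both surgical states.

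For Slc34a1 the log2 difference between diets was -0.17 in mice with 1 kidney (95% interval -0.47 to 0.13, adjusted p = 0.460) and 0.066 in sham mice (95% interval -0.26 to 0.39, adjusted p = 0.813). A second Slc34a1 probe gave 0.29 and 0.086, so the probes differed in sign in mice with 1 kidney. The summed signal of the 14 proximal tubule markers, relative to the array's 75th percentile, was 1730 to 1954 in high-fat mice with 1 kidney, against 1444 to 1685 in low-fat mice with 1 kidney. For sham mice this sum was 1141 to 2323 on the high-fat diet, against 1457 to 1590 on the low-fat diet. The high-fat sham ends were replicate 3 (1141) and replicate 1 (2323), the arrays with the highest and lowest median intensity of the series (251 and 56.7). They also had the lowest and highest Slc34a1 of all arrays (6.98 and 7.60). Of these 14 markers, 1 passed as higher and 1 as lower in mice with 1 kidney, and 1 passed as higher in sham mice. The part of these cells in the level of Slc34a3 was not tested.

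Pdzk1 encodes a PDZ scaffold of the brush border that binds NaPi-IIa and NaPi-IIc. With 1 kidney its level was 6.49, 6.51, 6.82 and 6.58 on the high-fat arrays, against 6.97, 6.76, 6.90 and 7.03 on the low-fat arrays. The sham levels were 6.74, 6.58 and 6.41 on the high-fat arrays, against 6.80, 6.67, 6.76 and 6.99 on the low-fat arrays. The means were lower on the high-fat diet in both surgical states, with 1 overlapping array on each side in both.

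The Pdzk1 log2 difference was -0.31 in mice with 1 kidney (SE 0.12, adjusted p = 0.0986) and -0.23 in sham mice (SE 0.13, adjusted p = 0.261), and neither passed. A call in mice with 1 kidney appeared with quantile normalization (-0.44, adjusted p = 0.0228), with cyclic loess (-0.30, adjusted p = 0.0348) and without high-fat 1-kidney replicate 3 (-0.39, adjusted p = 0.0366). In all, Pdzk1 passed under 3 of 25 alternatives in mice with 1 kidney and 0 of 25 in sham mice. With the slide as a random block its adjusted p in mice with 1 kidney was 0.547. A second Pdzk1 probe gave -0.11 in mice with 1 kidney and 0.058 in sham mice.

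The type III transporters Slc20a1 (PiT1) and Slc20a2 (PiT2) carry phosphate into cells of many tissues. Slc20a1 averaged 2.49 ± 0.61 on high-fat and 2.24 ± 0.26 on low-fat arrays of mice with 1 kidney (SD, n = 4 each). Sham mice averaged 2.71 ± 0.58 on high-fat arrays (SD, n = 3) and 2.54 ± 0.40 on low-fat arrays (SD, n = 4). Its single arrays ranged from 2.00 to 3.39, the widest group being the high-fat mice with 1 kidney. The log2 differences between diets, 0.25 and 0.17 (adjusted p = 0.627 and 0.772), were smaller than these SDs.

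Slc20a2 had levels of 1.18, 1.35, 1.85 and 1.95 in high-fat mice with 1 kidney, against 1.27, 1.16, 1.28 and 1.12 in low-fat mice with 1 kidney. Its sham levels were 1.37, 1.59 and 1.78 on the high-fat arrays, against 1.34, 1.52, 1.40 and 1.41 on the low-fat arrays. The high values were all on slide 2, where Slc20a2 ran from 1.59 to 1.95, above the 1.18 to 1.37 of the high-fat arrays on slide 1.

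For Slc20a2 the log2 difference between diets was 0.37 in mice with 1 kidney (SE 0.16, adjusted p = 0.137) and 0.17 in sham mice (SE 0.17, adjusted p = 0.559). With 1 kidney it passed when slides 1 and 2 were a fixed block (0.37, adjusted p = 0.0122). This block adjusts only between the high-fat slides, and diet stays tied to slide. Slc20a2 also passed on the mean of both probes (0.57, adjusted p = 0.00848). With the slide as a random block it did not pass (0.37, adjusted p = 0.470). The second probe alone gave 0.77 in mice with 1 kidney and 0.50 in sham mice, the same sign as the brighter one.

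Kl encodes alpha-Klotho, which turns FGFR1 into a high-affinity FGF23 receptor in the distal tubule. Kl was at 3.91, 4.00, 4.07 and 4.42 on the high-fat arrays with 1 kidney, against 4.32, 4.34, 4.38 and 4.36 on the low-fat ones. Among sham mice it was 4.15, 3.88 and 4.35 on the high-fat arrays, against 3.88, 4.12, 4.15 and 4.28 on the low-fat arrays. The low-fat mice with 1 kidney were closely grouped (SD 0.026), and 3 of the 4 high-fat arrays lay below them while the fourth was the highest of all 15.

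The Kl log2 difference between diets was -0.25 in mice with 1 kidney (95% interval -0.54 to 0.048, adjusted p = 0.251) and 0.021 in sham mice (95% interval -0.30 to 0.34, adjusted p = 0.947). Fgfr1 averaged 2.21 ± 0.26 on high-fat and 2.24 ± 0.092 on low-fat arrays of mice with 1 kidney (SD, n = 4 each), a log2 difference of -0.028 (adjusted p = 0.911). Sham levels of Fgfr1 were 2.14, 2.18 and 1.98 on the high-fat arrays, against 2.43, 2.53, 2.42 and 2.19 on the low-fat arrays. These sham groups did not overlap, but the log2 difference of -0.30 (SE 0.14, adjusted p = 0.187) did not pass. Of the other 2 Fgfr1 probes, 1 gave 0.14 and 0.25 and the other 0.42 and 0.20 in mice with 1 kidney and sham mice, the opposite sign to the brightest probe.

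**Figure D2:**
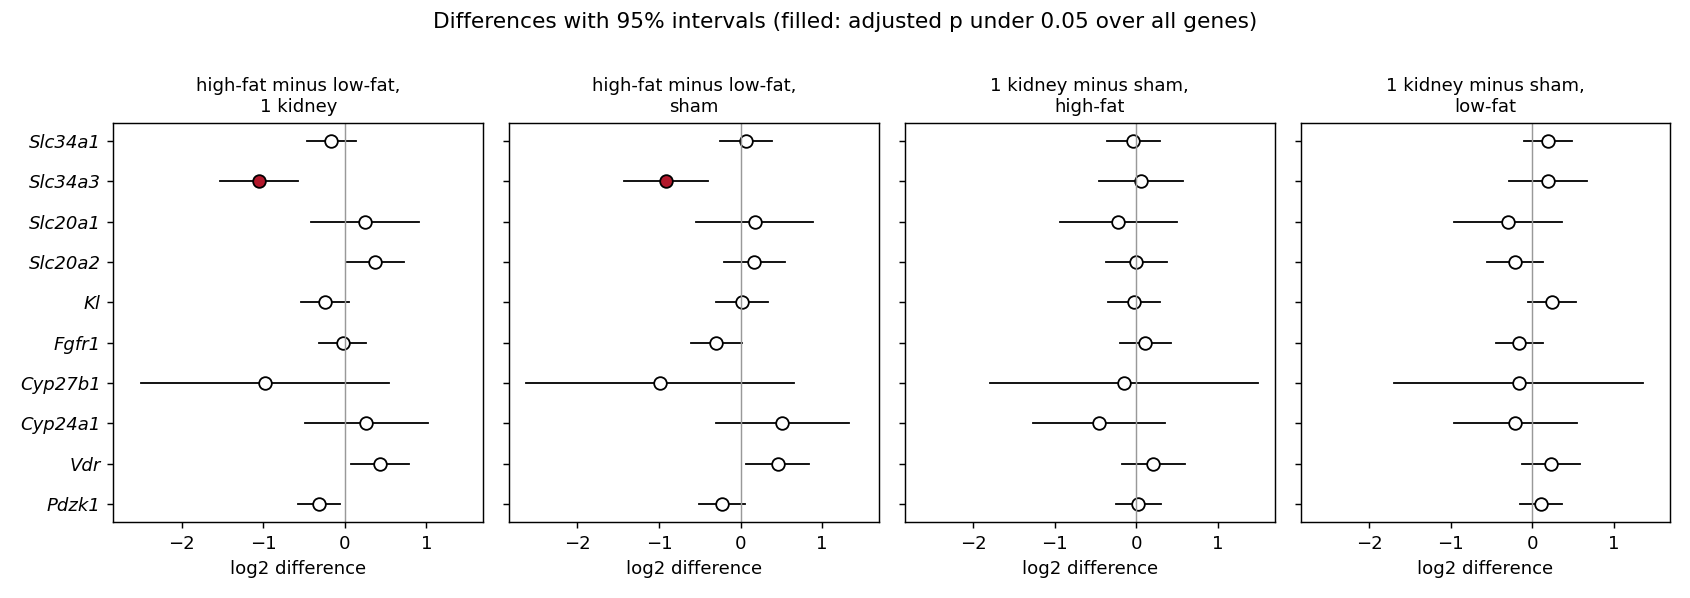
Log2 differences of the 10 genes (horizontal axis) with 95% intervals, for high-fat minus low-fat in mice with 1 kidney and in sham mice, and for 1 kidney minus sham on each diet. Filled points passed at an adjusted p under 0.05. The filled points are those of Slc34a3 in the diet panels, at -1.06 and -0.91, and no point is filled in the surgery panels.

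Groups that did not overlap were counted for each comparison. Between diets 2 of the 10 genes had separate groups in mice with 1 kidney (Slc34a3 and Vdr), beside 22.5% of all genes. In sham mice these were also 2 of 10 (Slc34a3 and Fgfr1), beside 26.2% of all genes. At an unadjusted p under 0.05 there were 4 of the 10 genes in mice with 1 kidney (Slc34a3, Slc20a2, Vdr and Pdzk1) and 2 in sham mice (Slc34a3 and Vdr). Over all 16055 genes these numbers were 4772 and 4843.

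Vdr encodes the vitamin D receptor, a nuclear receptor. With 1 kidney its level was 3.97, 4.02, 4.35 and 4.07 on the high-fat arrays, against 3.60, 3.51, 3.77 and 3.81 on the low-fat arrays. The sham levels were 4.07, 3.76 and 3.85 on the high-fat arrays, against 2.97, 3.85, 3.45 and 3.49 on the low-fat arrays. The groups were separate in mice with 1 kidney and overlapped in sham mice through low-fat replicate 2.

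The Vdr log2 difference between diets was 0.43 in mice with 1 kidney (SE 0.17, 95% interval 0.075 to 0.79, adjusted p = 0.0983) and 0.46 in sham mice (SE 0.18, 95% interval 0.071 to 0.84, adjusted p = 0.105). Neither passed, although both were positive and of like size. With cyclic loess Vdr passed in both surgical states (0.47, adjusted p = 0.0481 in mice with 1 kidney and 0.54, adjusted p = 0.0392 in sham mice). The sham difference also passed with quantile normalization (0.53, adjusted p = 0.0459) and without low-fat sham replicate 2 (0.59, adjusted p = 0.0481). Without low-fat sham replicate 1 it was smaller, at 0.30 (adjusted p = 0.253). In all, Vdr passed under 1 of 25 alternatives in mice with 1 kidney and 3 of 25 in sham mice. With the slide as a random block its adjusted p was 0.560 and 0.482.

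Cyp24a1, the calcitriol-inactivating hydroxylase, had levels of 2.99, 3.55, 3.54 and 2.55 in high-fat mice with 1 kidney, against 2.18, 2.67, 3.32 and 3.40 in low-fat mice with 1 kidney. Sham mice had levels of 3.94, 3.66 and 3.23 on the high-fat arrays, against 2.13, 3.62, 3.31 and 3.33 on the low-fat arrays. Its groups overlapped in every comparison.

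For Cyp24a1 the log2 difference between diets was 0.27 in mice with 1 kidney (95% interval -0.49 to 1.02, adjusted p = 0.653) and 0.51 in sham mice (95% interval -0.30 to 1.32, adjusted p = 0.393). Both intervals take in 0 and reach past 1, a doubling. Without low-fat 1-kidney replicate 1 the first was 0.027, and without low-fat sham replicate 1 the second was 0.19.

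Cyp27b1, the calcitriol-making hydroxylase, had the widest range of the 10 genes. With 1 kidney its level was -1.91, -1.21, -4.58 and -0.97 on the high-fat arrays, against -1.34, -0.96, -0.72 and -1.75 on the low-fat arrays. Among sham mice it was -1.86, -2.46 and -1.72 on the high-fat arrays, against 0.86, -1.86, -1.49 and -1.62 on the low-fat arrays. High-fat 1-kidney replicate 3 was far below its group, and low-fat sham replicate 1 far above its own.

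The Cyp27b1 log2 difference between diets was -0.98 in mice with 1 kidney (SE 0.71, adjusted p = 0.384) and -0.99 in sham mice (SE 0.77, adjusted p = 0.419). Single arrays carried much of both values. Without high-fat 1-kidney replicate 3 the first was -0.17, and without low-fat sham replicate 1 the second was -0.36.

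Across the 3 vitamin D genes, those arrays also stood at the ends of the range. Low-fat sham replicate 1 had the highest Cyp27b1 of the 15 arrays, the lowest Cyp24a1 (2.13) and the lowest Vdr (2.97). It was at an end of the 15 arrays in other measures too, with the lowest Kl (3.88). Its summed signals of podocyte (17.0), fibroblast (36.3), endothelial (18.1) and liver markers (81.8) were the highest, but not those of the other cell types followed. High-fat 1-kidney replicate 3 had the lowest Cyp27b1 and the highest Vdr (4.35), while its Cyp24a1 (3.54) was inside the range of its group. This is a description of single mice, and no test was made on it.

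**Figure D3:**
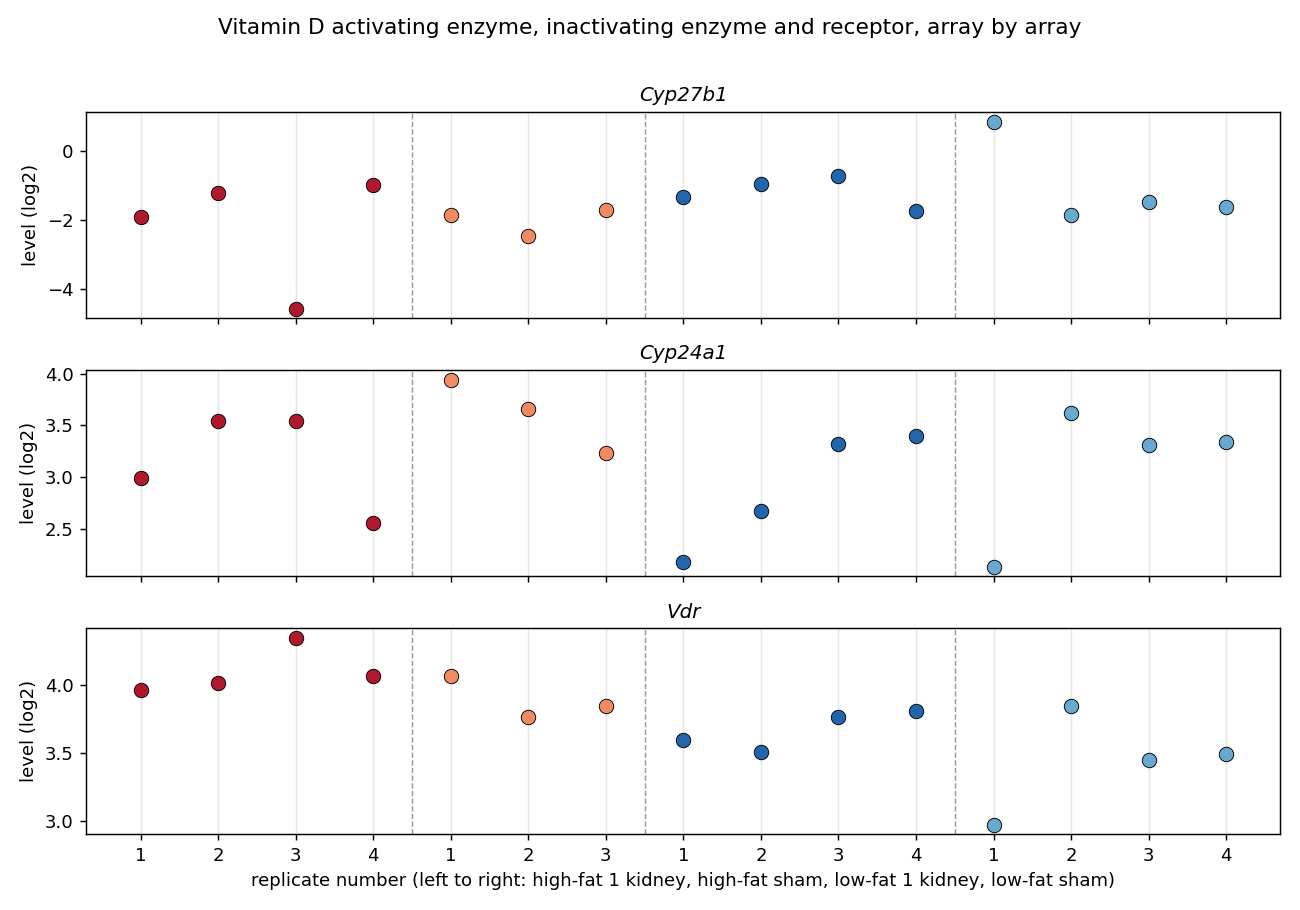
Levels of Cyp27b1, Cyp24a1 and Vdr on each array (vertical axes, log2 signal with the array's 75th percentile at 0), in the same array order in each panel, with colours for the 4 groups. Low-fat sham replicate 1 is the highest point for Cyp27b1 (0.86) and the lowest for Cyp24a1 (2.13) and Vdr (2.97).

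Loss of a kidney was compared with sham surgery within each diet. None of the 10 genes passed on the high-fat diet, where 0.00% of all genes passed, or on the low-fat diet, where 0.00623% passed. The adjusted p of the 10 genes was at least 0.999 in both, and none had an unadjusted p under 0.05. Over all genes, 747 had an unadjusted p under 0.05 on the high-fat diet and 519 on the low-fat diet.

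For Slc34a3 the log2 difference between mice with 1 kidney and sham mice was 0.056 on the high-fat diet (95% interval -0.46 to 0.57) and 0.20 on the low-fat diet (95% interval -0.28 to 0.68). For Slc34a1 it was -0.036 (95% interval -0.36 to 0.29) on the high-fat diet and 0.20 (95% interval -0.10 to 0.50) on the low-fat diet. The widest limits were those of Cyp27b1, -1.80 to 1.49 on the high-fat diet and -1.69 to 1.36 on the low-fat diet. These intervals are those of the brightest probe, and the second Slc34a1 probe gave 0.32 on the high-fat diet and 0.11 on the low-fat diet.

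On the low-fat diet the 1-kidney and sham arrays did not overlap for 2 of the 10 genes, beside 4.57% of all genes. Kl levels of 4.32 to 4.38 after uninephrectomy stood against sham levels of 3.88 to 4.28, a log2 difference of 0.24 (SE 0.14, adjusted p = 1.00). Slc20a2 levels of 1.12 to 1.28 after uninephrectomy stood against sham levels of 1.34 to 1.52, a log2 difference of -0.21 (SE 0.16, adjusted p = 1.00). Neither passed, and each of these groups filled a slide of its own. On the high-fat diet no member's groups were separate, beside 2.93% of all genes.

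On the high-fat diet both slides held both kinds of mice, so the surgery difference could be read within a slide. For Slc34a3 it was -0.78 on slide 1 (2 arrays of mice with 1 kidney, 1 sham) and 0.67 on slide 2 (2 arrays of each). For Cyp24a1 it was -0.68 on slide 1 and -0.40 on slide 2. Cyp24a1, Slc34a1 (-0.20 and -0.030) and no other of the 10 genes had the same sign on both slides.

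The interaction asks whether the diet difference depends on the surgery. None of the 10 genes passed, where 0.00% of all genes passed and 219 genes had an unadjusted p under 0.05. For Slc34a3 the diet difference in mice with 1 kidney minus that in sham mice was -0.14 on the log2 scale (SE 0.33, 95% interval -0.85 to 0.57). This interval covers 0 as well as differences in either direction of over 0.5.

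The other genes of these pathways were taken from 4 lists of 58 genes, of which 55 were measured. On the high-fat diet 3 passed as higher and 1 as lower with 1 kidney, and 2 as higher and 2 as lower after sham surgery. Of all genes, 7.67% passed as higher with 1 kidney and 6.48% after sham surgery. None passed between surgeries or for the interaction. The listed genes that passed, 4 of 55 in each diet comparison, are a smaller share than the 14.2% and 13.9% of all genes.

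Among 17 other phosphate transport and scaffold genes 1 passed, as higher on the high-fat diet in both surgical states, and the list's median log2 difference was 0.14 in mice with 1 kidney and 0.15 in sham mice. That gene was Shank2, a PDZ-domain scaffold, at -4.25 ± 0.29 on high-fat and -5.50 ± 0.39 on low-fat arrays of mice with 1 kidney (SD, n = 4 each; log2 difference 1.26, adjusted p = 0.00537). After sham surgery its log2 difference was 1.36 (adjusted p = 0.00643). The Shank2 probe was dim: it was well above background on all 7 high-fat arrays but on 1 of 4 low-fat 1-kidney arrays and 3 of 4 low-fat sham arrays. Its levels on the low-fat 1-kidney arrays, -6.03 to -5.15, lay about where those arrays' lowest signals well above background lay, at -5.94 to -5.32. The differences are therefore not exact sizes. With normexp background correction it did not pass (0.44 and 0.33, adjusted p = 0.869 and 0.911).

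Of 22 measured genes of FGF23, Klotho and parathyroid hormone signalling, 1 passed in mice with 1 kidney and 0 in sham mice. The list's median log2 differences between diets were 0.057 and 0.14. Fgfr2, a fibroblast growth factor receptor, averaged -2.26 ± 0.16 on high-fat and -2.98 ± 0.18 on low-fat arrays of mice with 1 kidney (SD, n = 4 each; log2 difference 0.72, adjusted p = 0.0253). For sham mice the log2 difference was 0.43 (adjusted p = 0.185). The call was lost on leaving out high-fat 1-kidney replicate 2 (0.67, adjusted p = 0.0705) or low-fat 1-kidney replicate 2 (0.72, adjusted p = 0.0535), 3 (0.69, adjusted p = 0.0660) or 4 (0.67, adjusted p = 0.0744). It was also lost with normexp correction (0.41, adjusted p = 0.567) and on the mean of its probes (0.57, adjusted p = 0.0955).

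Of 10 genes of vitamin D synthesis, uptake and receptor partnership, 1 passed as higher and 1 as lower in each diet comparison, both of them retinoid X receptors, which pair with VDR on DNA. The list's median log2 differences were 0.13 in mice with 1 kidney and 0.049 in sham mice. Rxrb averaged 2.83 ± 0.12 on high-fat and 3.35 ± 0.12 on low-fat arrays of mice with 1 kidney (SD, n = 4 each; log2 difference -0.52, adjusted p = 0.0223). In sham mice the Rxrb log2 difference was -0.49 (adjusted p = 0.0392), and 12 of 25 alternatives ended that call, as against 5 of 25 in mice with 1 kidney. The sham call was lost without high-fat sham replicate 2 or 3, low-fat 1-kidney replicate 1, 3 or 4, or any low-fat sham array (-0.54 to -0.39). The other was lost without high-fat 1-kidney replicate 2 (-0.46) or low-fat 1-kidney replicate 1 (-0.51) or 4 (-0.47). Rxrg had log2 differences of 0.70 (adjusted p = 0.00596) in mice with 1 kidney and 0.86 (adjusted p = 0.00360) in sham mice. Its probes disagreed, since on the mean of its probes these were 0.021 and 0.16 (adjusted p = 0.953 and 0.652).

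The distal calcium transport genes that vitamin D is known to regulate were measured as a list of 6, with median log2 differences of -0.44 in mice with 1 kidney and -0.59 in sham mice, and 5 of the 6 negative in each. Of these 6, 0 passed in mice with 1 kidney and 1 passed, as lower, in sham mice. Trpv6, an apical calcium channel, averaged -2.95 ± 0.24 on the high-fat arrays (SD, n = 3) and -2.36 ± 0.27 on the low-fat arrays (SD, n = 4) of sham mice (log2 difference -0.58, adjusted p = 0.0354). With 1 kidney its log2 difference was -0.44 (adjusted p = 0.0762). The sham call was lost with normexp correction (-0.56, adjusted p = 0.337), in a fit of the compared groups alone (adjusted p = 0.102), and without high-fat sham replicate 1 or 3 or low-fat sham replicate 1 or 3 (-0.61, -0.45, -0.45 and -0.60). With the slide as a random block none of the 5 genes named from these lists passed.

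Markers of other cells moved with diet in part. Of 8 lymphocyte markers 3 passed as higher with 1 kidney and 2 after sham surgery, all on the high-fat diet, beside 7.67% and 6.48% of all genes. Their summed signal was 3.26 to 4.31 in high-fat mice with 1 kidney, against 1.90 to 2.17 in low-fat mice with 1 kidney. The sham sums were 2.58 to 3.88 on the high-fat diet, against 1.89 to 2.19 on the low-fat diet. Of 12 loop and distal nephron markers 1 passed, as higher, in each surgical state. Of 8 adipocyte markers 1 passed as higher and 1 as lower with 1 kidney, and 2 passed as lower after sham surgery. Of all genes, 6.52% passed as lower with 1 kidney and 7.41% after sham surgery. The adipocyte sum was 10.9 to 20.6 on high-fat and 15.6 to 26.6 on low-fat arrays with 1 kidney, and 10.8 to 21.7 on high-fat and 26.4 to 43.7 on low-fat sham arrays. Of 7 fibroblast and matrix markers 1, Dcn, passed as lower after sham surgery and 0 passed with 1 kidney. Their sum was 13.8 to 17.1 on high-fat and 12.6 to 23.3 on low-fat arrays with 1 kidney, and 15.5 to 21.8 on high-fat and 22.4 to 36.3 on low-fat sham arrays. Of 7 podocyte markers 0 passed in either state, with sums of 8.73 to 11.5 on high-fat and 11.5 to 12.9 on low-fat arrays with 1 kidney. In sham mice the podocyte sum was 10.9 to 12.2 on high-fat and 12.4 to 17.0 on low-fat arrays. Of 8 liver markers 1 passed as higher and 1 as lower with 1 kidney, and 1 passed as higher after sham surgery. Of 7 endothelial markers 1 passed as higher with 1 kidney and 1 as lower after sham surgery. Of 4 measured adrenal cortex markers 0 passed with 1 kidney, and 1 passed as higher and 1 as lower after sham surgery. The part of these cells in the values of the 10 genes was not tested.

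**Figure D4:**
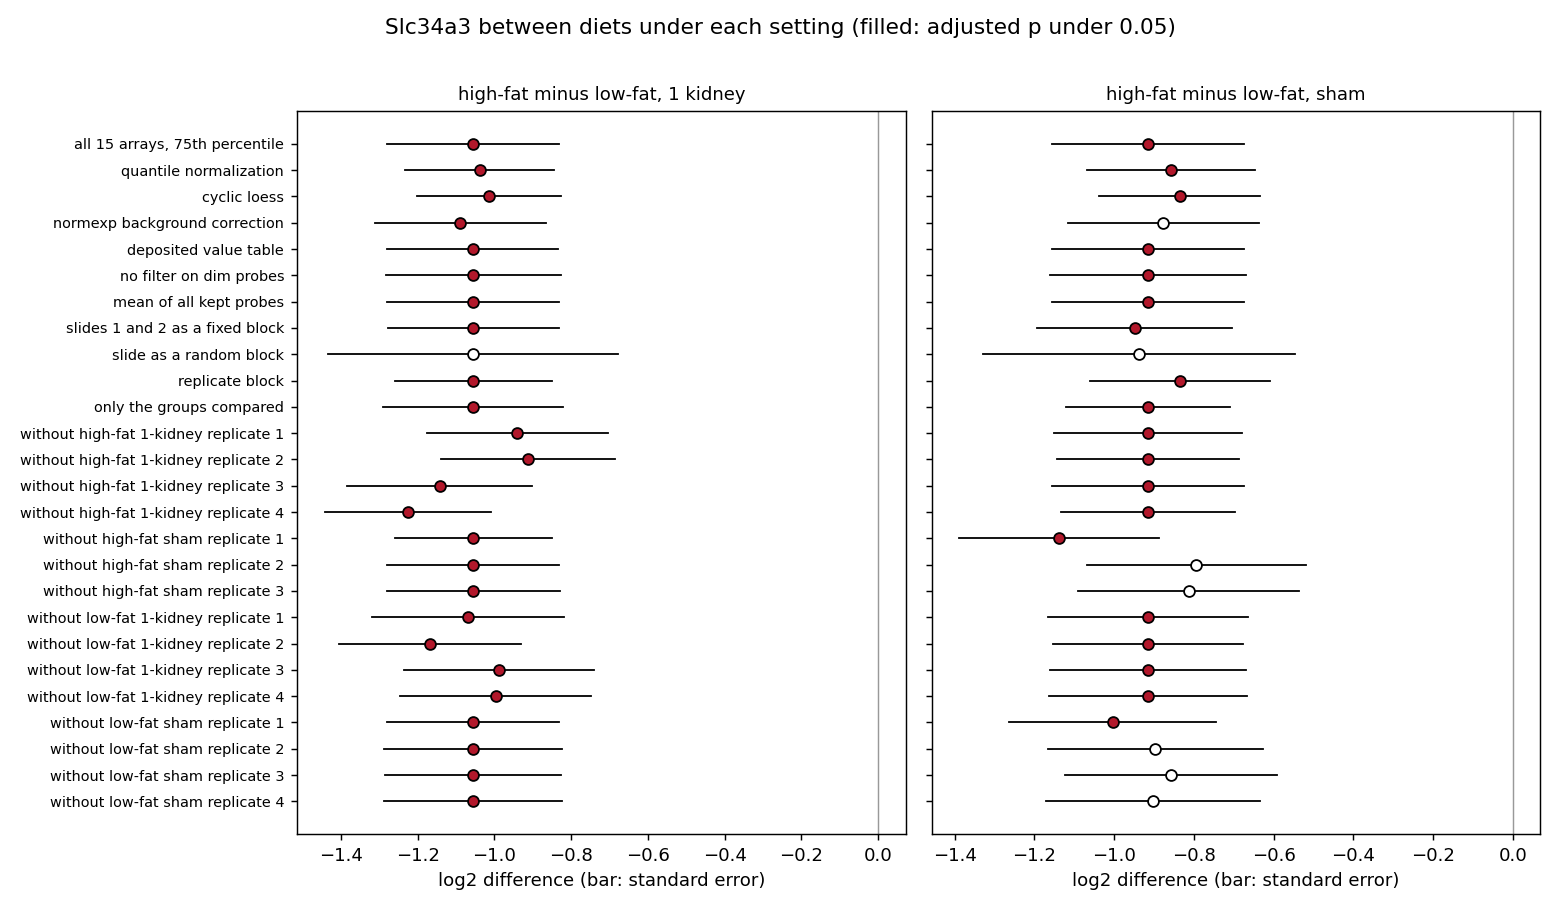
Log2 difference of Slc34a3, high-fat minus low-fat (horizontal axes), with its standard error, in mice with 1 kidney (left) and sham mice (right), under each processing setting or with an array left out. Filled points passed at an adjusted p under 0.05. All points lie below 0, and the slide as a random block ends the call in both panels (adjusted p = 0.258 and 0.281).

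The genes whose profiles over the 15 arrays were most like those of 3 of the genes were found by the root mean square difference between centred log2 profiles. For Slc34a1, whose own SD over the arrays was 0.18, they were Ccdc124 (0.092), Mbd3 (0.10) and Pcx (0.10), beside a median of 0.36 over 16011 genes. For Kl, with an SD of 0.19, they were Sdha (0.061), Aldh6a1 (0.076) and Tmem260 (0.080), beside a median of 0.35. For Cyp24a1, with an SD of 0.55, they were Gabrd (0.35), G0s2 (0.36) and Lilra5 (0.38), beside a median of 0.62. This measure grows with a gene's own SD, so its sizes are not compared between the 3 genes. All profiles share the same arrays, slides and scaling.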

How the data were processed

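Each kidney's RNA was amplified, labelled with Cy3 and read on a 1-colour Agilent array, per the labels' protocols. The authors' deposited intensity (processed signal) values were made with Agilent's Feature Extraction, version 10.7.3.1 per the file headers (10.7 in the submitters' processing notes). They are background-subtracted, with no scaling between arrays. The deposited value table held the same intensities, at 0.995 to 1.005 times the scanner values (column medians 56.7 to 251). Its scale is therefore linear, with no centring.

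Spots marked as outliers (74 to 273 per array) and control spots were left out, and no spot was saturated. From each log2 signal the 75th percentile of its array was subtracted, taken over all 39429 non-control probes. A probe was kept if 3 or more arrays had it well above background, and the probe with the highest mean stood for its gene. Of the 39429 probes, 27234 were named through RefSeq accessions, as 20659 symbols (assembly GRCm38.p6; the array header gives mm9).

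limma 3.58.1 (R 4.3.3, statmod 1.5.0) fitted 1 mean per group over 15 arrays; tests were two-sided. Alternatives changed normalization, background correction, value table, dim-probe filter, probe choice, slide and replicate blocks, the arrays fitted and each array in turn. The same tests were checked on simulated data, drawn with no correlation within slides. Far fewer genes were changed there than passed between diets. The adjusted threshold was therefore stricter than in the diet comparisons, and the pass rates do not carry over to them. Planted 2-fold differences passed at 48% to 66% in the diet and surgery comparisons and at 16% for the interaction. Planted 1.5-fold differences passed at 7% to 11% and at 1%. A gene that did not pass can therefore still differ. Promoter sequences matched 7 of the 10 genes. The 10 genes and the lists were chosen with earlier results of these data known. Named genes were the 10, every listed pathway gene that passed, and the 3 genes most like Slc34a1, Kl and Cyp24a1. For the listed pathway genes most alternatives were added after seeing the data. Same-numbered high-fat 1-kidney and sham arrays had correlated deviations from the group means (r = 0.43, 0.12 and 0.33). The pairs numbered 1 and 3 also share a slide. Differently numbered arrays of these groups that share a slide had r = 0.42, 0.23, 0.077 and -0.26. The replicate numbers are therefore not shown to pair the mice.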

Additional observations from a re-analysis of the deposited data

Results flagged for a closer look

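Cyp27b1 in low-fat sham replicate 1 was 0.86 on the log2 scale, while the other 3 arrays of that group lay between -1.86 and -1.49. The gap to the nearest array was 0.865 of the group's range, past Dixon's 95% limit for 4 samples. Over 30 groups of 4 arrays tested for the 10 genes this was the 1 such case, and chance gives about 1 in 20. Without this array the diet difference of Cyp27b1 in sham mice was -0.36 in place of -0.99, and the surgery difference on the low-fat diet was 0.46 in place of -0.17.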

How the results depend on the processing

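The number of the 10 genes past the test, 1 in each diet comparison, became 2 with quantile normalization in both, 3 in mice with 1 kidney and 2 in sham mice with cyclic loess, and 0 in both with the slide as a random block (correlation 0.406). It became 2 in mice with 1 kidney on the mean of all kept probes or with slides 1 and 2 as a fixed block, and 0 in sham mice with normexp correction. Leaving out 1 array gave 1 to 2 in mice with 1 kidney (2 without high-fat replicate 3) and 0 to 1 in sham mice. Slc34a3 passed under 24 of 25 alternatives in mice with 1 kidney and 18 of 25 in sham mice. With normexp it was -0.88 in sham mice (adjusted p = 0.0893). These 25 are not independent checks. Slc34a3 had 1 probe, so the probe mean and the dim-probe filter could not change its difference. Leaving out an array of a group not compared left the difference as it was and changed only its error. No surgery or interaction call appeared for the 10 genes under any alternative run. The cause of these changes was not tested.

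Signs turned only where no call had been made. For diet in mice with 1 kidney these were Slc34a1 (0.11 with normexp, 0.064 on the mean of probes) and Fgfr1 (0.011 with quantile, 0.017 with loess, 0.18 on the mean of probes). In sham mice they were Kl (-0.0055 with the fixed slide block) and Fgfr1 (0.053 on the mean of probes). For surgery on the high-fat diet they were Slc34a1 (0.14 on the mean of probes), Slc34a3 (-0.0033 with quantile), Cyp27b1 (0.059 with normexp) and Pdzk1 (-0.13 with quantile, -0.087 with loess, -0.019 with normexp). There Slc20a2 became 0.000161 with normexp, 7.68e-05 from the value table, 0.084 on the mean of probes and with the fixed slide block, and 0.058 with the random block. On the low-fat diet they were Slc34a1 (-0.0029) and Pdzk1 (-0.018) with normexp and Fgfr1 (0.052) on the mean of probes.

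Leaving out 1 array also turned signs. For diet in mice with 1 kidney the ranges were -0.049 to 0.41 for Slc20a1 and -0.13 to 0.058 for Fgfr1. In sham mice they were -0.092 to 0.22 for Slc34a1, -0.074 to 0.49 for Slc20a1 and -0.090 to 0.14 for Kl. For surgery on the high-fat diet they were -0.19 to 0.12 for Slc34a1, -0.11 to 0.28 for Slc34a3, -0.54 to 0.027 for Slc20a1, -0.12 to 0.13 for Slc20a2, -0.15 to 0.082 for Kl, -0.55 to 0.65 for Cyp27b1 and -0.059 to 0.11 for Pdzk1. On the low-fat diet they were -0.44 to 0.46 for Cyp27b1 and -0.53 to 0.032 for Cyp24a1, and the Slc34a3 interaction ran from -0.31 to 0.082.

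Same-numbered arrays of different groups, which are different mice, correlated at -0.15 to 0.43 over 21 pairs, 5 of them over 0.1. Differently numbered arrays correlated at -0.46 to 0.42 over 63 pairs, 13 of them over 0.1. Between the high-fat groups all 3 same-numbered pairs were over 0.1, but so were differently numbered arrays on a shared slide (up to 0.42). In the diet comparisons and for surgery on the low-fat diet no same-numbered pair was over 0.1. The numbers were thus not shown to pair the samples in any comparison. With a replicate block common to both diets Slc34a3 was -1.06 (adjusted p = 0.00955) in mice with 1 kidney and -0.83 (adjusted p = 0.0391) in sham mice, and both counts stayed at 1. For surgery on the high-fat diet the replicate block gave -0.024 for Slc34a3 and -0.0064 for Pdzk1, and none of the 10 genes passed. It changed no call of the 10 genes.

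Over all genes, the 2278 calls in mice with 1 kidney and 2230 in sham mice became 316 (120 higher, 196 lower) and 161 (50 higher, 111 lower) with normexp, which moved the median of all genes to -0.11 in sham mice. They became 26 and 14 with the random slide block, 4101 and 4474 with the fixed one, 3596 and 4850 without the dim-probe filter, and 1181 in sham mice from the compared groups alone. Leaving out 1 array gave 1297 to 3306 and 1210 to 2718.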
